A study of Mus musculus with 12 samples.

Results

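The Ikaros family consists of 5 zinc finger transcription factors, Ikaros (Ikzf1), Helios (Ikzf2), Aiolos (Ikzf3), Eos (Ikzf4) and Pegasus (Ikzf5). Their 5 rows, out of 23234 genes and short RNAs in the table, were found by gene symbol. Levels were measured by RNA-seq in 12 libraries of sorted CD24hiTCRβlo CD4+CD8+ thymocytes, the stage before positive selection, from C57BL/6 thymus. Wild-type newborn mice gave 5 libraries. Newborn Bcl11bm/m mice gave 3, and these carry on both chromosomes a germline frameshift allele of the T cell factor Bcl11b whose product lacks the final zinc finger. The other 4, titled cKO, came from Bcl11bfl/fl:Cd4-Cre animals, whose Cd4-driven Cre removes Bcl11b from the CD4+CD8+ stage on. The age of the cKO mice is not given for these samples in the sources used here, although the study's general methods took organs from mice some weeks old, and age, depth and genotype cannot be told apart in that group. Genotypes were taken from the sample titles and the overall design, because the free-text descriptions of the wild-type samples and of the cKO samples give a different genotype. The protocol attached to the samples describes the sorting of another thymocyte population, so it does not bear out the sort stated above. It also does not name the strand-specific library kit of the study's methods, so the library chemistry is uncertain.

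Ikaros proteins bind DNA through zinc fingers near the amino terminus and pair with one another through further fingers at the carboxy terminus. They recruit the NuRD complex, which joins nucleosome remodelling to histone deacetylation, as well as other corepressors. In developing T cells Ikaros restrains Notch target genes and limits proliferation, and mice without it develop thymic lymphoma. Helios and Eos are best known from regulatory T cells, Aiolos from the CD4+CD8+ stage and from B cells, and Pegasus is the most distant relative and is expressed in many tissues.

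The coding sequences show how much of this machinery the members share. The bases of the second zinc finger, which lies in the DNA-binding part, are given for each member from the annotated coding transcript (GENCODE vM1, NCBIM37), 5′ to 3′ on the coding strand, with the codons of the 2 cysteines and 2 histidines that hold the zinc ion in capitals.
Ikzf1, chr11:11654027-11654089, plus strand, exon 6 of 9: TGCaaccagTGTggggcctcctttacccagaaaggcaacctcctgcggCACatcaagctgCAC
Ikzf2, chr1:69617155-69617217, minus strand, exon 5 of 8: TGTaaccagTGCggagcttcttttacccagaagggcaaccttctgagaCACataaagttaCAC
Ikzf3, chr11:98350254-98350316, minus strand, exon 5 of 8: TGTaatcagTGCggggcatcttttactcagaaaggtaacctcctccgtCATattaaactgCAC
Ikzf4, chr10:128077285-128077347, minus strand, exon 5 of 9: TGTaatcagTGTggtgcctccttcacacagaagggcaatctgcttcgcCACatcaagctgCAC
Ikzf5, chr7:138536015-138536077, minus strand, exon 4 of 4: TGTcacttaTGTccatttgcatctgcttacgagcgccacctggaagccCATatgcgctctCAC

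Among Ikzf1, Ikzf2, Ikzf3 and Ikzf4 this finger translated identically, at 21 of 21 codons in every pair, although only 76.2 to 84.1% of the 63 bases were the same. Ikzf5 encoded the same residue as Ikzf1 at 5 of 21 codons. These include the 2 cysteines and 2 histidines, which the pattern used to locate the fingers requires. The carboxy-terminal pair of fingers makes the contacts between members, and its first finger is shown for Ikzf1, the most abundant member, and for Ikzf5, the most distant one.
Ikzf1, chr11:11669414-11669476, plus strand, exon 9 of 9: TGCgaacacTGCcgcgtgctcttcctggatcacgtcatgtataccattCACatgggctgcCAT
Ikzf5, chr7:138535253-138535315, minus strand, exon 4 of 4: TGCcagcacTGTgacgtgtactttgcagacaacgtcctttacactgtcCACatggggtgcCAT

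Ikzf1 and Ikzf2 encoded the same residue at 21 of 21 codons of this finger, Ikzf1 and Ikzf4 at 19, and Ikzf1 and Ikzf5 at 14. Ikzf5 was thus closer to Ikzf1 here than in the second finger. Over the whole coding sequence, 57.8% of the aligned codons encoded the same residue in Ikzf1 and Ikzf3, and 33% in Ikzf1 and Ikzf5. The genes lie apart in the genome, Ikzf1 at chr11:11585006-11672929 on the plus strand, Ikzf3 at chr11:98326216-98407345, Ikzf2 at chr1:69577788-69732534, Ikzf4 at chr10:128067899-128083047 and Ikzf5 at chr7:138532166-138554035, the last 4 on the minus strand. The values are FPKM (fragments scaled to transcript length and to the number of mapped fragments) for whole genes, so they can be compared between genes, but the isoforms of a gene, 12 annotated transcripts for Ikzf1, are not separated.

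Depth, estimated from the steps in low FPKM values, was 3960000 to 6930000 fragments in the wild-type, 2720000 to 4190000 in the Bcl11bm/m and 10800000 to 45290000 in the cKO libraries. At these depths Ikzf1 rested on at least 3923 fragments in any library and Ikzf2 on at least 178. Bcl11b itself had 218 ± 72.5 FPKM in wild-type (SD, n = 5), 449 ± 28.9 in Bcl11bm/m (n = 3) and 130 ± 11.1 in cKO libraries (n = 4), and a whole-gene value does not show the frameshift or the removed exons. Thpok (Zbtb7b), the CD4 lineage factor, separated the genotypes, with at most 0.215 FPKM in any wild-type library and at least 9.44 FPKM in any mutant library. Nothing in the labels says that replicates came from separate mice, so p-values measure the spread between these libraries only.

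In wild-type cells Ikaros and Aiolos dominated the family. Ikzf1 had 190 ± 21.4 FPKM and Ikzf3 99.2 ± 33.5 FPKM (SD, n = 5), followed by Ikzf5 with 19.9 ± 3.20 FPKM, Ikzf2 with 7.32 ± 1.95 FPKM and Ikzf4 with 0.0977 ± 0.0705 FPKM. This order held in 5 of 5 wild-type libraries, and no 2 neighbours in it had overlapping ranges. In the mutants the place of Ikzf2 changed: it stood above Ikzf5 in 2 of 3 Bcl11bm/m and in 2 of 4 cKO libraries, and the ranges of these 2 genes overlapped in both groups. Ikzf1 stayed first and Ikzf3 second in each of the 12 libraries.

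**Figure D1:**
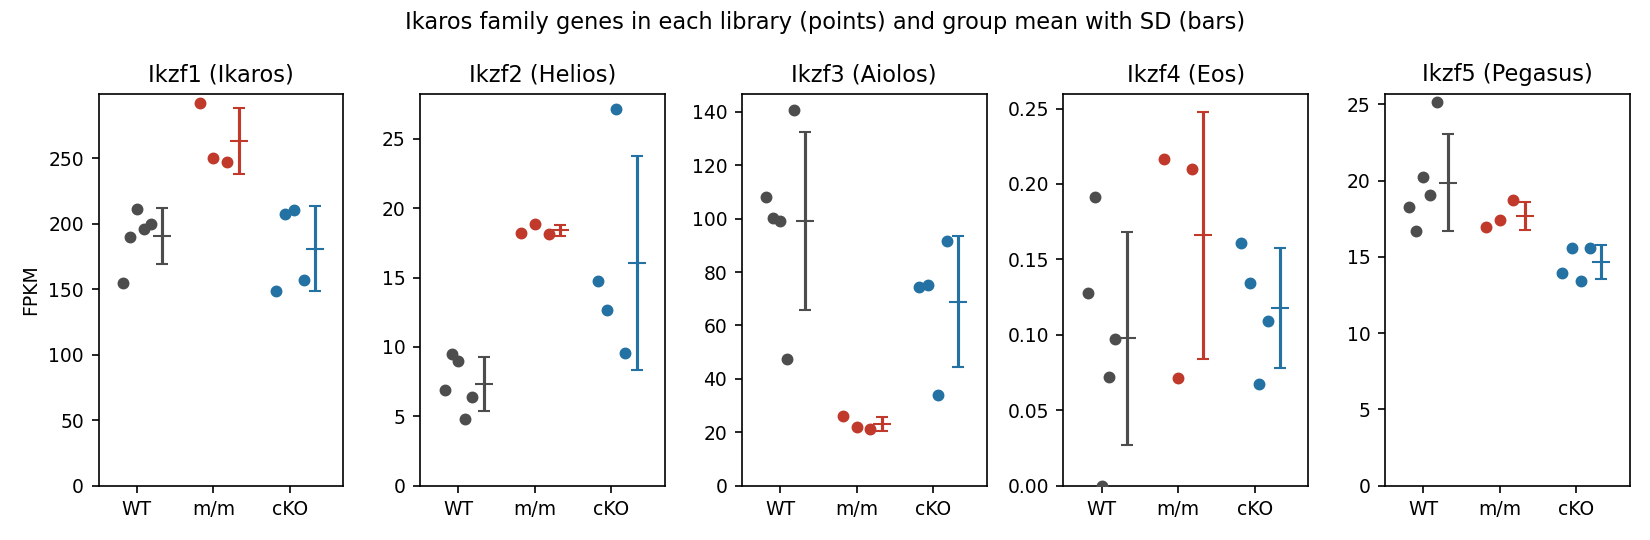
FPKM of the 5 Ikaros family genes in wild-type (WT), Bcl11bm/m (m/m) and cKO libraries, each point a library, with the group mean and SD as a bar and a separate axis from 0 for each gene. The Bcl11bm/m libraries lie above all wild-type libraries for Ikzf1 and Ikzf2 and below them for Ikzf3.

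The first question was how the family differed between Bcl11bm/m and wild-type cells. Ikaros and Helios transcripts were higher and Aiolos transcripts lower, while Pegasus did not pass the test. Of the 4 members with a mean of at least 1 FPKM, 2 were called higher and 1 lower by limma, at a Benjamini-Hochberg adjusted p under 0.05 over the 10780 genes tested. Over all genes 17.3% were called, 9.92% higher and 7.39% lower. The values of 3 members did not overlap between the groups, as was the case for 25.4% of all genes.

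Aiolos showed the largest difference of the family. Ikzf3 had 108, 100, 99.2, 47.6 and 141 FPKM in the 5 wild-type libraries (replicates 1 to 5) and 26.1, 21.9 and 21.4 FPKM in Bcl11bm/m replicates 1 to 3. The highest mutant library was thus well under the lowest wild-type library, replicate 4, which itself stood apart from the other wild-type libraries. The mean was 4.29 times lower, a log2 difference of -1.98 ± 0.31 (SE; adjusted p = 0.00350 by limma). It was called when any library was left out, at -2.22 to -1.83.

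Helios differed in the opposite direction. Ikzf2 had 6.89, 9.52, 9.02, 4.79 and 6.36 FPKM in the wild-type and 18.2, 18.8 and 18.2 FPKM in the Bcl11bm/m libraries. The 3 mutant libraries were close together, with an SD of 0.376 FPKM, and all lay above the wild-type range. The mean was 2.52 times higher, a log2 difference of 1.26 ± 0.20 (SE; adjusted p = 0.00421 by limma), and it was called when any library was left out.

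The difference of Ikaros, the founding member, was smaller and less secure. Ikzf1 had 155, 190, 211, 196 and 200 FPKM in the wild-type and 292, 250 and 247 FPKM in the Bcl11bm/m libraries, without overlap. The mean was 1.38 times higher (log2 difference 0.47 ± 0.14 SE, adjusted p = 0.0482 by limma). Without wild-type replicate 1, which had the lowest value, the call held (0.40, adjusted p = 0.0312), whereas without any 1 of the other 7 libraries the adjusted p lay between 0.0617 and 0.160. With no filter on low genes the adjusted p was 0.0644.

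Pegasus, by contrast, had 18.2, 16.7, 20.2, 19.0 and 25.1 FPKM in the wild-type and 16.9, 17.4 and 18.7 FPKM in the Bcl11bm/m libraries, and these ranges overlap. The log2 difference of Ikzf5 was -0.15, with a 95% interval of -0.46 to 0.17 (adjusted p = 0.530 by limma). Eos was barely detected. Ikzf4 was listed at 0 in wild-type replicate 3, had at most 0.191 FPKM in the other wild-type libraries and had 0.216, 0.0717 and 0.210 FPKM in the Bcl11bm/m libraries. A floor of 3 fragments was passed in 2 of 5 wild-type and 1 of 3 Bcl11bm/m libraries, so no difference of Ikzf4 was detectable at this depth (exact permutation test, two-sided, p = 0.321).

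The second question was how deletion of Bcl11b from the CD4+CD8+ stage on compared with wild-type. Helios was higher, and no other member passed the test. Of the 4 members tested, 1 was called higher and 0 lower by limma (1 and 1 at an unadjusted p under 0.05), against 14.5% of all genes called, 4.65% higher and 9.86% lower. The wild-type and cKO libraries did not overlap for 2 members, as was the case for 16.1% of all genes. Of the genes called, 32% were higher, and 47.4% with median-ratio scaling, which shifted the median of all genes from -0.09 to 0.01 on the log2 scale.

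Ikzf2 had 14.8, 12.6, 27.2 and 9.54 FPKM in cKO replicates 1 to 4. All 4 values lay above the wild-type libraries, though replicate 4 was above the highest of them by a narrow margin and replicate 3 had the highest level of the 12 libraries. The mean was 2.19 times that of wild-type, a log2 difference of 0.97 ± 0.28 (SE; adjusted p = 0.0439 by limma). The call held without replicate 4 of the cKO group (1.16, adjusted p = 0.0391) and was lost without any 1 of the other 8 libraries, at 0.69 without replicate 3 (adjusted p = 0.0966), with a range of adjusted p from 0.0530 to 0.110. With no filter on low genes it was 0.0798.

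Aiolos varied widely in this group. Ikzf3 had 74.6, 75.2, 34.1 and 91.8 FPKM, which overlaps the wild-type range. The log2 difference from wild-type was -0.53, with a 95% interval of -1.29 to 0.24 (adjusted p = 0.334 by limma). It was -0.22 without cKO replicate 3 and -0.77 without wild-type replicate 4, and was not called in either case. Replicate 3, with the lowest Ikzf3 of the group, was also the library with the highest Ikzf2.

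Ikzf1 had 149, 208, 211 and 157 FPKM in the cKO libraries, overlapping the wild-type range. Its log2 difference was -0.08 (95% interval -0.42 to 0.26, adjusted p = 0.754 by limma), and its sign changed with the scaling, to 0.03 with median-ratio scaling. Ikzf5 had 14.0, 15.6, 13.4 and 15.6 FPKM, each below every wild-type library. The log2 difference of Ikzf5, -0.41 ± 0.13 (SE), missed the threshold (adjusted p = 0.0595 by limma) and was -0.30 with median-ratio scaling. Ikzf4 had 0.161, 0.135, 0.0673 and 0.109 FPKM, above the 3-fragment floor in 4 of 4 of these deeper libraries and within the range of the other groups (exact permutation test, two-sided, p = 0.619).

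The mutants were then compared directly. Aiolos was lower in Bcl11bm/m than in cKO cells, and Helios showed no difference beyond the spread. Of the 4 members tested, 0 were called higher and 1 was called lower by limma (2 and 1 at an unadjusted p under 0.05), against 10.2% of all genes called, 7.63% higher and 2.6% lower. The mutant groups did not overlap for 3 members, as was the case for 26.7% of all genes. Of the genes called, 74.6% were higher in Bcl11bm/m cells, and 54.4% with median-ratio scaling.

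Mean Ikzf3 was 2.98 times lower in Bcl11bm/m cells, a log2 difference of -1.45 ± 0.32 (SE; adjusted p = 0.0317 by limma). The lowest cKO library, replicate 3 with 34.1 FPKM, was nearest to the Bcl11bm/m values. Without that library the difference was -1.75 (adjusted p = 0.00177), and without any 1 of the other 6 libraries the adjusted p lay between 0.0619 and 0.108. Ikzf2 differed by 0.29 on the log2 scale, and the 95% interval, -0.42 to 0.99, leaves room for a difference in either direction (adjusted p = 0.565 by limma). It was 0.56 without cKO replicate 3 (adjusted p = 0.0784) and 0.09 without cKO replicate 4. Ikzf1 was higher in all 3 Bcl11bm/m libraries than in the 4 cKO libraries, by 0.55 ± 0.16 (SE), and Ikzf5 likewise by 0.26 ± 0.10 (SE). Neither passed the threshold, with adjusted p = 0.0735 for Ikzf1 and 0.130 for Ikzf5 by limma.

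Over the 15 tests of 5 members in 3 comparisons, the exact two-sided permutation test gave no adjusted p under 0.107. The smallest unadjusted p that the design allows is 0.0357 for Bcl11bm/m against wild-type, 0.0159 for cKO against wild-type and 0.0571 between the mutants. The 3 comparisons share libraries pairwise and are therefore not independent of one another.

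**Figure D2:**
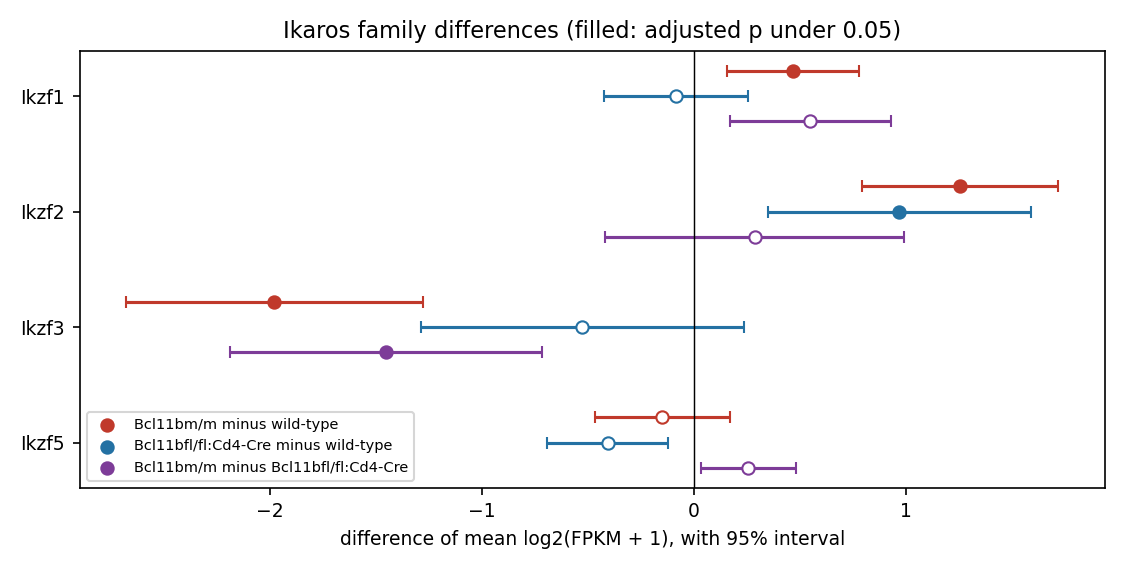
Differences of mean log2(FPKM + 1) for the 4 members tested in the 3 comparisons, with 95% intervals, filled where the adjusted p was under 0.05. Ikzf3 in Bcl11bm/m cells lies farthest from 0, at -1.98 against wild-type and -1.45 against cKO cells.

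Since family members can pair with one another, and Ikzf1 to Ikzf4 share the DNA-binding finger shown above, the proportions of the members were described as well. The summed FPKM of the family was 268 to 373 in wild-type, 306 to 354 in Bcl11bm/m and 252 to 311 in cKO libraries, so the sums overlapped. The make-up of that sum differed. Aiolos supplied 17.8 to 37.8% of it in wild-type but 7.0 to 7.37% in Bcl11bm/m libraries, and 12 to 33.5% in cKO libraries. Ikaros supplied 53.7 to 73.3%, 80.9 to 82.6% and 57.3 to 73.8% in the same order of groups. Helios supplied 1.71 to 3.01%, 5.14 to 6.11% and 3.48 to 9.52%. These shares follow from the levels given above and carry no test of their own.

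Expressed as ratios, Ikaros exceeded Aiolos 1.42 to 4.12 times in wild-type libraries. In the Bcl11bm/m libraries it did so 11.2 to 11.6 times. In cKO libraries the ratio was 1.71 to 6.17, with the top value in replicate 3. Aiolos exceeded Helios 9.94 to 22.1 times in wild-type, 1.17 to 1.43 times in Bcl11bm/m and 1.26 to 9.62 times in cKO libraries. The 3 Bcl11bm/m libraries were thus nearly alike in these proportions, whereas the cKO libraries were spread. For Aiolos to Helios their lowest ratio fell within the Bcl11bm/m range, while for Ikaros to Aiolos none reached it.

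**Figure D3:**
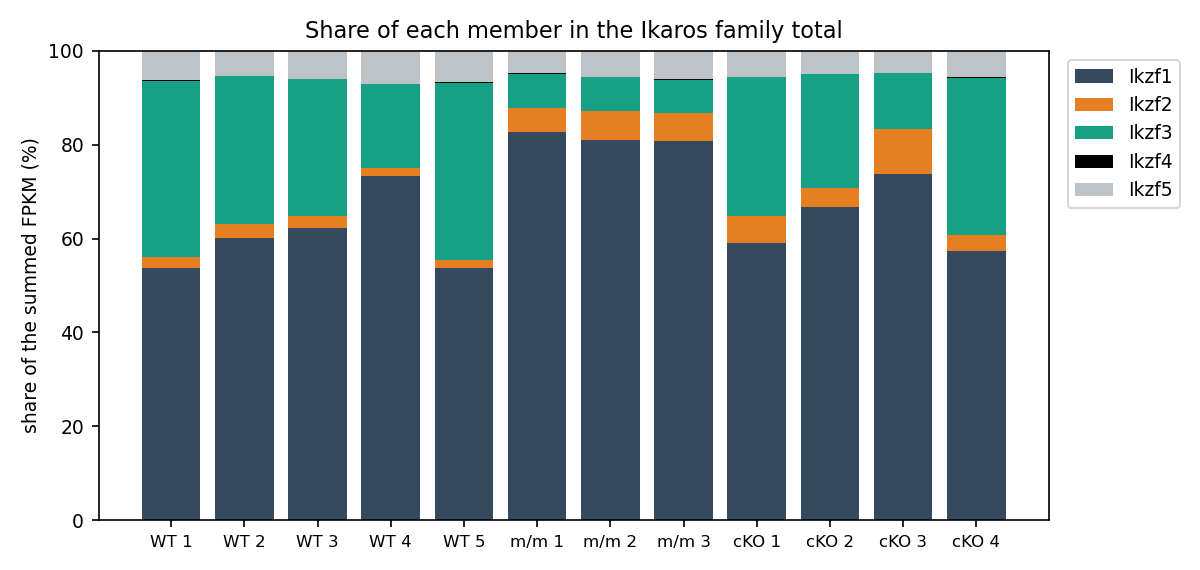
Share of each member in the summed FPKM of the Ikaros family, 1 bar per library. Ikzf3 takes 7.0 to 7.37% in the 3 Bcl11bm/m libraries (m/m) and 12 to 37.8% in the other 9, and the sliver of Ikzf4 is hardly visible.

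**Figure D4:**
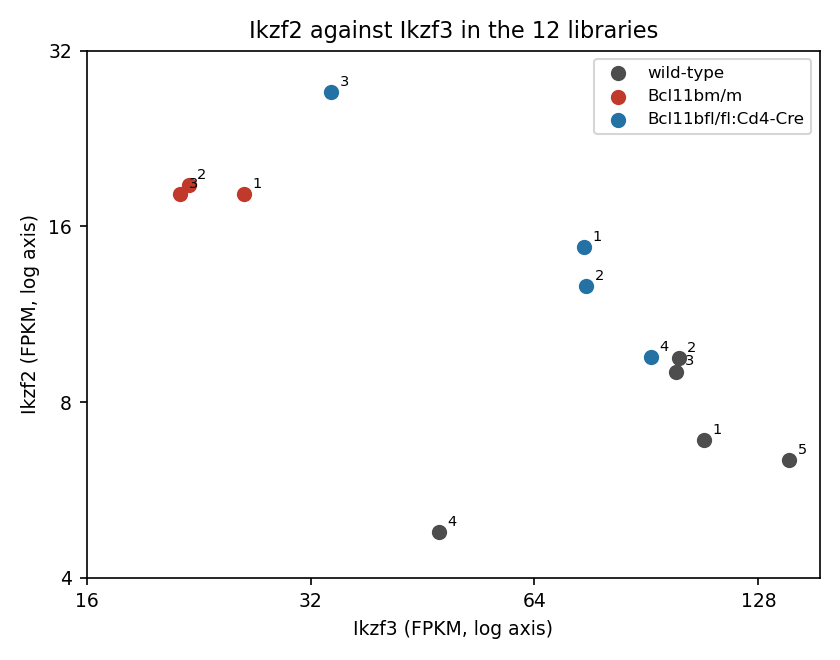
Ikzf2 against Ikzf3 in FPKM on log axes, 1 point per library, labelled with the replicate number. The Bcl11bm/m libraries sit at the upper left with replicate 3 of the cKO group above them, and wild-type replicate 4 is low for both genes.

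The other cells that a sort could hold, and the stage of the thymocytes, were followed with marker lists, whose summed levels below cover every listed gene, tested or not. The defining genes of the labelled stage were abundant in all groups, and the group means of Cd4, Cd8a, Cd8b1, Rag1 and Dntt were between 299 and 1661 FPKM. Even so, in Bcl11bm/m against wild-type cells 7 of 13 markers of pre-selection CD4+CD8+ thymocytes were lower and 0 higher, and their summed level was 4808 to 5396 FPKM against 6379 to 8633 FPKM. The largest decreases were those of Ptcra, the pre-TCR alpha chain (-2.22 ± 0.25 SE), and Cd24a (-1.15 ± 0.19 SE). Of 10 mature thymocyte markers, 8 were higher, with a summed level of 560 to 861 FPKM against 260 to 369 FPKM. Of 12 genes induced by strong TCR signals, 6 were lower, among them Nr4a1 and Egr1. In cKO cells 2 of 13, 5 of 10 and 3 of 12 members of these lists were called, in the same directions. The count of 2 of 13 is near the share over all genes, and with median-ratio scaling it was 1 of 13. For these lists and those that follow, the share called over all genes was 17.3% in Bcl11bm/m and 14.5% in cKO against wild-type cells. In both comparisons 2 of the higher mature markers, Il7r and S1pr1, had a mean under 1 FPKM in wild-type and passed the filter on low values only through the mutants, so their calls add nothing to these counts.

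Replicate 3 of the cKO group, the library with the highest Ikzf2 and the lowest Ikzf3 of its group, also had the most mature thymocyte transcripts of that group. Its mature markers summed to 813 FPKM against 341 to 408 FPKM in the other 3 libraries of the group, and its pre-selection markers summed to 4729 FPKM, the lowest of the 12 libraries. It also had the highest Thpok of the 12, 56.6 FPKM, against 9.44 to 33.1 FPKM in the rest of its group. The part of thymocyte stage in the Ikaros family differences was not tested. In bulk RNA, fewer cells of a type and less RNA per cell cannot be told apart.

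Some genes on the lists of other cell types moved with genotype too. Of 4 NK cell genes tested, 3 were higher in Bcl11bm/m than in wild-type cells, led by Gzma, with a summed level of 217 to 427 FPKM against 19.0 to 73.1 FPKM. Of 6 myeloid genes, 3 were higher, with a sum of 27.2 to 107 FPKM against 7.58 to 15.7 FPKM, while Cd14 was listed at 0 in 4 of 5 wild-type and 2 of 3 Bcl11bm/m libraries. The gamma-delta T cell list summed to 112 to 153 against 1.49 to 3.23 FPKM, mostly from Cd163l1 and 5830411N06Rik, while Il17a and Il23r were listed at 0 in 3 of 3 Bcl11bm/m libraries. Of its 6 tested genes 3 were higher and 1, Etv5, was lower (-0.70 ± 0.15 SE, adjusted p = 0.0142 by limma). The summed progenitor list had 10.8 to 24.4 against 1.42 to 2.87 FPKM, mostly from Lyl1. Of its 8 listed genes only Kit and Lyl1 passed the filter on low values, both with a mean under 1 FPKM in wild-type, so their count carries no weight. The same holds for the 3 gamma-delta T cell genes called higher, for Klrb1c among the NK cell genes, Mpeg1 among the myeloid genes and Pdgfrb among the stromal genes. The 3 genes tested for B cells, in which Aiolos is abundant, were 0 higher and 0 lower by limma (1 had an unadjusted p under 0.05), with a sum of 9.95 to 39.4 against 15.3 to 22.4 FPKM, and Pax5 was listed at 0 in 5 of 5 wild-type libraries and had at most 0.364 FPKM in Bcl11bm/m libraries. Of 3 erythroid genes 0 were called by limma in this comparison and 0 had an unadjusted p under 0.05 (10.7 to 29.8 against 2.64 to 34.0 FPKM), and of 3 stromal genes 2 were higher and 1 lower (145 to 170 against 39.5 to 67.5 FPKM), the sum being mostly Pecam1, while Foxn1, a defining epithelial factor, was listed at 0 in 4 of 5 wild-type and 3 of 3 Bcl11bm/m libraries. Bcl11bm/m replicate 1 held the highest sum of its group in several lists, with 39.4 FPKM for B cells (9.95 and 10.9 in the other 2), 107 FPKM for myeloid cells (27.2 and 40.3) and 427 FPKM for NK cells (217 and 229). Without it the log2 differences from wild-type were -2.06 for Ikzf3, 1.26 for Ikzf2 (both called) and 0.39 for Ikzf1 (not called).

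In cKO against wild-type cells these counts were 1 higher and 1 lower of 4 NK genes (sum 65.8 to 184 FPKM), and 0 and 2 of 6 myeloid genes (2.96 to 48.7 FPKM). The gamma-delta T cell list summed to 6.18 to 93.7 FPKM and the progenitor list to 7.41 to 28.3 FPKM. The counts were 1 and 0 of 3 B cell genes (Cd79a, under 1 FPKM in wild-type, 12.8 to 29.8 FPKM), 0 and 0 of 3 erythroid genes (1 at an unadjusted p under 0.05, 0.928 to 5.22 FPKM) and 2 and 1 of 3 stromal genes (85.5 to 141 FPKM). As with Cd79a, the higher stromal gene Pdgfrb had a mean under 1 FPKM in wild-type, so both calls add nothing to these counts. Replicate 3 held the top NK, myeloid and stromal sums of the cKO group (184, 48.7 and 141 FPKM). Its B cell and gamma-delta T cell sums were the lowest of the group (12.8 and 6.18 FPKM). The top NK, myeloid and stromal sums rested largely on 1 gene each, Gzma, Fcer1g and Pecam1, whose highest cKO values were 160, 42.2 and 127 FPKM. Lyz2 had at most 1.46 FPKM in any cKO library, and Cd14 and Ncr1 were listed at 0 in 4 of 4. Whether transcripts of other cell types contributed to the Ikaros family values was not tested.

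Helios and Eos are known from regulatory T cells, and the markers of those cells were therefore examined. Foxp3, their defining factor, had at most 0.147 FPKM in any of the 12 libraries, including those with the highest Ikzf2. Of 5 regulatory T cell markers that could be tested, 1 was higher in Bcl11bm/m than in wild-type cells, Il2ra, which encodes the IL-2 receptor alpha chain and is also expressed by early thymocytes (3.55 ± 0.39 SE, adjusted p = 0.000727 by limma). This count is near the share over all genes, of which 17.3% were called. In cKO against wild-type cells 0 of 5 were called by limma, beside 14.5% of all genes, and 1, Nrp1, had an unadjusted p under 0.05. With median-ratio scaling Nrp1, which encodes the coreceptor neuropilin-1 and is named here after its value was seen, was called higher in both mutants, by 0.55 in Bcl11bm/m (adjusted p = 0.00880 by limma) and by 0.86 in cKO cells (adjusted p = 0.0231 by limma). The list summed to 25.6 to 49.1 FPKM in wild-type, 68.6 to 156 FPKM in Bcl11bm/m (the top value in replicate 1, the others at most 71.9) and 39.9 to 54.4 FPKM in cKO libraries.

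The partners through which Ikaros proteins act were examined next, as a list of 20 subunits of NuRD, SWI/SNF, Sin3 and CtBP complexes, of which 19 were tested. In Bcl11bm/m against wild-type cells 1 was higher and 2 were lower, a share that is not above the 17.3% called over all genes, and the median log2 difference was -0.25, beside -0.02 for all genes tested. Mta3, a NuRD subunit, rose from 46.8 to 85.8 FPKM (0.87 ± 0.24 SE, adjusted p = 0.0364 by limma), while Rbbp7, a histone-binding subunit, and Mbd2, a methyl-CpG-binding subunit, fell by 0.60 and 0.52 on the log2 scale. With median-ratio scaling 1 was higher and 5 were lower, and 2378 of the 10780 genes tested were called. The share of subunits was then above that of all genes, a difference that was not tested. In cKO against wild-type cells 0 were higher and 4 lower, beside 14.5% of all genes called, with a median of -0.36 beside -0.09 for all genes. These were Smarca4 (-0.84) and Smarcc1 (-0.76), which encode the Brg1 ATPase and a core subunit of SWI/SNF, together with Rbbp7 (-0.80) and the deacetylase gene Hdac2 (-0.52). Between the mutants 0 of 19 subunits were called by limma, with or without median-ratio scaling, and 3 had an unadjusted p under 0.05.

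Genes linked to Ikaros binding in lymphocytes moved in both directions. Of 14 tested, 3 were higher and 4 lower in Bcl11bm/m than in wild-type cells, with a median of -0.50 beside -0.02 for all genes. Over all genes 17.3% were called in this comparison, 9.92% higher and 7.39% lower. The higher genes included the Notch targets Hes1, from 0.115 to 13.4 FPKM (3.44 ± 0.39 SE, adjusted p = 0.000782 by limma), and Dtx1, from 2.1 to 29.9 FPKM (3.25 ± 0.42 SE, adjusted p = 0.00141 by limma). Hes1 passed the filter on low values only through the mutants, so its call adds nothing to the count of higher genes. Myc, the growth-promoting factor, rose from 9.47 to 38.8 FPKM (1.89 ± 0.22 SE, adjusted p = 0.000920 by limma). Nrarp, another Notch target, had 2.94 FPKM in wild-type and 3.18 FPKM in Bcl11bm/m cells (0.05, adjusted p = 0.941 by limma), and the receptor gene Notch3 had 7.09 and 4.09 FPKM (-0.68, adjusted p = 0.0672 by limma). The lower genes were Ptcra, the coreceptor genes Cd4 (-0.99) and Cd8b1 (-0.96), and Rag2, a subunit of the recombinase (-0.87, named after its value was seen). Of the 17 genes of the list, 7 are also among the 13 pre-selection markers. All 4 lower genes belong to this overlap and were already counted there, so they are not a separate observation.

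In cKO against wild-type cells 2 of the 14 were higher and 0 lower, a share that is not above the 14.5% called over all genes. The median was -0.38 beside -0.09 for all genes. The higher genes were Dtx1 (2.83 ± 0.64 SE, adjusted p = 0.0186) and Hes1 (2.39 ± 0.55 SE, adjusted p = 0.0187), each by limma. Here too Hes1 passed the filter only through the mutants, so its call adds nothing to the count. Myc had 11 FPKM in this group and 9.47 FPKM in wild-type, with a log2 difference of 0.17 (adjusted p = 0.613). The direct comparison of the mutants called 1 of the 14, Myc, higher in Bcl11bm/m cells by 1.72 ± 0.28 (SE; adjusted p = 0.0138 by limma). That count is not above the share over all genes, of which 10.2% were called and 7.63% were higher.

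**Figure D5:**
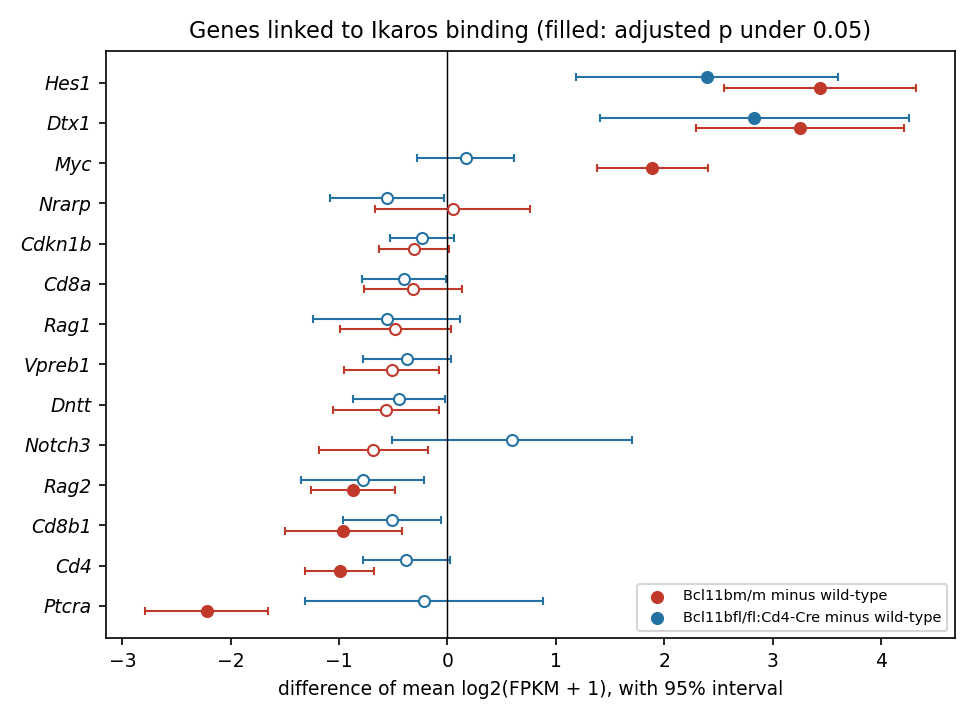
Differences of mean log2(FPKM + 1) from wild-type, with 95% intervals, for the 14 tested genes linked to Ikaros binding, ordered by their value in Bcl11bm/m cells and filled where the adjusted p was under 0.05. Hes1 and Dtx1 are higher in both mutants, Myc in Bcl11bm/m cells at 1.89, and Ptcra is lowest at -2.22.

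The genes whose levels followed each member most closely over the 12 libraries were Dap, Cd2 and Tmsb10 for Ikzf1 (Pearson r = 0.95, 0.95 and 0.94), Ss18, C2cd2 and Brd1 for Ikzf2 (0.97, 0.97 and 0.96), Gse1, Pik3c2b and Ccdc93 for Ikzf3 (0.94, 0.92 and 0.92) and Afap1, Mapk8 and Mllt3 for Ikzf5 (0.96, 0.94 and 0.94). These are the highest of all tested genes by selection and describe only these libraries, in which genotype and depth differ between the groups. With group means removed, the first of each set kept r = 0.89 for Dap, 0.91 for Ss18, 0.74 for Gse1 and 0.90 for Afap1.

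The nearest annotated genes on either side of each member were listed to see whether a difference extended along the chromosome. Beside Ikzf3, Grb7 and Zpbp2 were called in neither comparison with wild-type, although Grb7 was lower in Bcl11bm/m than in cKO cells (-0.89, adjusted p = 0.0360 by limma). Beside Ikzf2, Erbb4 was listed at 0 in every library and Spag16 had a mean of at most 0.0429 FPKM in any group. Beside Ikzf1, Fignl1 was lower in cKO than in wild-type cells (-1.64, adjusted p = 0.00927 by limma), where Ikzf1 was not called, and 4930415F15Rik was under the expression filter. Suox, next to Ikzf4, was lower in Bcl11bm/m than in wild-type cells (-0.80, adjusted p = 0.0256 by limma), and Rps26 on its other side was called in no comparison. Pstk and Acadsb, on the sides of Ikzf5, were called in no comparison. Acadsb begins 80 bases from Ikzf5 on the opposite strand, and the annotated span of Fgfr2, which had a mean of at most 0.0785 FPKM, overlaps Ikzf5.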

How the data were processed

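RNA-seq values for 12 libraries (5 wild-type, 3 Bcl11bm/m, 4 cKO, Bcl11bfl/fl:Cd4-Cre) were deposited by the authors as FPKM per gene, from reads mapped with tophat2 and quantified with cufflinks. The submitters' processing notes name TopHat2 2.8.0, Cufflinks 2.1.1 and mm9. No scaling between libraries is stated. The study's methods name a strand-specific library kit, which the deposited protocol does not, and whether strand was used in quantification is not stated, so overlapping and antisense transcripts may not be separated. The deposit gives no read numbers, and depth was estimated from FPKM steps in 5026 single-transcript genes, where 64.1 to 72.4% of low values lay within 0.1 of a whole multiple, against 20% if spread evenly. Floors cover counting error only.

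Values were taken as log2(FPKM + 1), and log2 differences are on this scale, which understates changes of low genes. Genes averaging 1 FPKM or more over the libraries (10780) were tested with limma 3.58.1 in R 4.3.3 (lmFit, eBayes with a trend) on the 2 groups of each comparison, with two-sided p-values adjusted by Benjamini-Hochberg over all of them and a threshold of 0.05. The test was checked on simulated data. Members were also tested by exact permutation (scipy 1.17.1). Alternatives were a pseudocount of 0.1, no filter, a filter at a mean of 5 FPKM, median-ratio scaling, rescaling without 730 short RNA features, 1 fit to all 3 groups, the replicate number as a block and leaving out each library.

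Members and lists were chosen with earlier results of these data known. Named were the 5 members, Bcl11b, up to 4 called genes per list by size of change, the 3 genes most correlated with each member, and adjacent genes. Thpok, Foxp3 and the markers listed at 0 were added with their values known. Sequences and positions came from GENCODE vM1 on NCBIM37. Fingers were located by the Cys-Cys-His-His zinc finger pattern in the translated coding transcript, and aligned with Biopython 1.88. Promoter sequences were not used here. ChIP-seq and ATAC-seq were not used here. Part of the sequence comparison is not reported here.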

Additional observations from a re-analysis of the deposited data

How the results depend on the processing

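Lower Ikzf3 in Bcl11bm/m than in wild-type cells passed the threshold under all 7 alternatives (-2.10 to -1.88) and without any library (-2.22 to -1.83). For Ikzf1 in that comparison the difference was 0.47 without a filter (adjusted p = 0.0644), with a filter at 5 FPKM (0.0509) and with all 3 groups fitted together (0.0541), and 0.39 to 0.51 without each library. For Ikzf2 it was 1.13 to 1.35 without each library. In cKO against wild-type cells Ikzf2 was 0.97 without a filter (adjusted p = 0.0798) and 0.69 to 1.16 without each library. Ikzf1 turned to 0.03 with median-ratio scaling, 0.071 when rescaled without short RNAs and 0.0056 without cKO replicate 1 (-0.16 to 0.0056 without each library). Ikzf5 passed with all 3 groups fitted together (-0.41, adjusted p = 0.0313) and without wild-type replicate 1 (-0.43, adjusted p = 0.0413), with -0.46 to -0.32 without each library. Between the mutants Ikzf1 passed when rescaled without short RNAs (0.50, adjusted p = 0.0360), and Ikzf3 was -1.75 to -1.29 without each library. With that filter 1189 genes were called in Bcl11bm/m against wild-type cells (1866 otherwise) and 656 between the mutants (1102 otherwise). Without each library the counts were 1021 to 2349 for Bcl11bm/m and 700 to 2678 for cKO against wild-type and 313 to 1121 between the mutants. The causes were not tested.

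Replicate numbers were not used as pairs in the main tests. With group means removed, same-numbered libraries of the compared groups had correlations of -0.21 to 0.15. Such values from so few libraries cannot settle whether the samples were paired. With the replicate block, in which a library with no same-numbered partner carries no weight, 283, 456 and 30 genes were called in the 3 comparisons (1564 without it in cKO against wild-type). Ikzf1 was 0.51 (adjusted p = 0.320) and Ikzf2 1.04 (0.0732) for Bcl11bm/m against wild-type, Ikzf2 was 0.93 (0.0537) for cKO against wild-type, and Ikzf3 was -1.29 (0.117) between the mutants.

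Scaling moved the median of all genes in cKO against wild-type cells from -0.09 to 0.04 without short RNAs, where 53.0% of called genes were higher (32% otherwise). Ikzf4 had a fitted value only without a filter (0.087 for Bcl11bm/m against wild-type, adjusted p = 0.476 by limma), and depth limits any statement on it.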
